A study of Mus musculus with 4 samples.

Results

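The genes described here encode 10 proteins that detect nucleic acids in the cytosol or in endosomes, or that relay that signal: Ddx58, Ifih1, Dhx58, Mavs, Zbp1, Eif2ak2, Tlr3, Tlr7, Mb21d1 and Tmem173. They were chosen by name, since cellular RNA that lacks N6-methyladenosine (m6A) can become visible to RNA sensors, and the rule names genes rather than values, although it was set with earlier results of these data known. All 10 were among the 23690 genes listed for the first pair of mice. The table of the second pair lists 11835 genes, each above 1 RPKM in both of its libraries, and holds 9 of the 10, without Tlr3. RPKM is a read number corrected for gene length and for library size.

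RNA was sequenced from mature dendritic cells (maDC) derived from the bone marrow of C57BL/6 mice aged 6 weeks. The culture contained 10 ng/ml GM-CSF and 1 ng/ml IL-4, CD11c-positive cells were enriched on magnetic beads, and LPS, a bacterial ligand of Tlr4, was added at 100 ng/ml for 24 h. Mettl3KO cells came from Mettl3 fl/fl mice with CD11c-Cre, in which Cre removes part of Mettl3, the catalytic subunit of the m6A methyltransferase, in CD11c-expressing cells. Mettl3WT cells came from Mettl3 fl/fl littermates, which carry the floxed alleles but not Cre, so the effects of the transgene and of losing Mettl3 cannot be told apart. Each genotype had 2 libraries, here pair 1 and pair 2 with a littermate of each genotype, and all 4 were LPS-treated.

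Cytosolic RNA is bound by RIG-I (Ddx58), MDA5 (Ifih1) and LGP2 (Dhx58). RIG-I and MDA5 signal through the mitochondrial adaptor Mavs, whereas LGP2 lacks the signalling domains and modulates the other RIG-I-like receptors. PKR (Eif2ak2) binds double-stranded RNA and blocks translation, Zbp1 binds Z-form nucleic acids and can start necroptosis, Tlr3 and Tlr7 read RNA inside endosomes, and cGAS (Mb21d1) makes the cyclic dinucleotide that activates STING (Tmem173) when DNA is in the cytosol. Several of these genes are induced by type I interferon, which dendritic cells make after LPS through Tlr4 and the adaptor Ticam1.

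m6A is often placed in the sequence GGACU, written GGACT in DNA letters, and is enriched near stop codons. To show where a sensor transcript offers that sequence, the GGACT closest to the stop codon is printed for 4 sensors of the RNA branch, chosen after the positions were seen and each within a single exon, 5′ to 3′ along the transcript and with GGACT in capitals. Positions are in mm10 and the transcript models are from GENCODE vM21. Whether these sites carry m6A was not analysed here.
Ddx58: caaagtggaaGGACTttcattttga
Dhx58: agctctccctGGACTgacccccttg
Eif2ak2: ggatgaggaaGGACTctggcttttg
Mavs: ggttctctgtGGACTcttaagaaag
The Ddx58 site (chr4:40205847-40205871, minus strand) and the Dhx58 site (chr11:100695149-100695173, minus strand) lie in the coding sequence, with their A 49 and 4 bases before the last base of the stop codon. The Eif2ak2 site (chr17:78854814-78854838, minus strand) and the Mavs site (chr2:131247357-131247381, plus strand) lie in the 3′ UTR, 313 and 580 bases after it.

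All 10 sensors had at least 1 GGACT in their longest coding transcript, beside 92.4% of the tested protein-coding genes. Dhx58 had 7, or 2.90 per kilobase, a density above that of 97.5% of 9675 tested protein-coding genes. Eif2ak2 had 9, or 2.09 per kilobase, of which 7 were in the 3′ UTR, and Tlr3 had 8. At the low end Mb21d1 and Zbp1 had 1 each, or 0.247 and 0.503 per kilobase. The sensors' median of 1.00 per kilobase lay close to the median of 1.05 over all tested coding genes, and 4 of 10 sensors exceeded that median.

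The libraries differed in markers of cell types, whose part in the sensor values that follow was not tested, and in bulk RNA fewer cells of a type and less RNA per cell cannot be told apart. Values are given in the order Mettl3WT and Mettl3KO of pair 1, then of pair 2. The summed level of 10 dendritic cell markers was 6624, 5911, 9047 and 4949 RPKM. Cd74 made up the largest part of each sum, at 2276, 1845, 4612 and 2302 RPKM. Of these markers 6 of 10 were lower in Mettl3KO in both pairs, beside 30.8% of all genes tested. Itgax, Flt3, Fscn1 and Irf4 went in opposite directions in the pairs, with Itgax at 12.6, 9.66, 17.2 and 51.0 RPKM. Of 11 monocyte and macrophage markers 9 were tested and 5 were higher in both pairs, with sums over those 9 of 4317, 5230, 11282 and 16158 RPKM. Of 12 granulocyte markers 4 were in both tables (Camp, S100a8, S100a9 and Csf3r), with sums over these 4 of 2164, 4711, 3043 and 154 RPKM and S100a9 at 1237, 2843, 1844 and 2.57 RPKM, so that this set was higher in Mettl3KO of pair 1 and lower in Mettl3KO of pair 2. Of 7 markers of type 1 conventional dendritic cells, which are rich in Tlr3, 3 were tested and 1 was lower in both pairs. Sums over those 3 (Batf3, Irf8 and Wdfy4) were 379, 428, 343 and 231 RPKM, with Xcr1 at 0.297 and 0.583 RPKM and Clec9a at 0.435 and 0.636 RPKM in pair 1. Of 8 markers of plasmacytoid dendritic cells, which are rich in Tlr7, 3 were tested (Tcf4, Bst2 and Spib), 1 was higher and 1 lower in both pairs, and the sums over these 3 were 520.0, 755, 504 and 543 RPKM. Bst2, which is also one of the interferon-stimulated effectors, made up most of each sum at 502, 739, 488 and 537 RPKM, Spib was at 13.9, 11.6, 11.2 and 2.26 RPKM, and the defining Siglech was at 0 and 0.0946 RPKM in pair 1. Marker sums of B and T cells were 6.21 and 6.40 RPKM in pair 1. The libraries held about 31170000 to 35550000 reads, as recovered from the RPKM of low genes. Mettl3 (chromosome 14, 52294841 to 52305214, minus strand) stood at 86.5% and 86.1% of Mettl3WT in the Mettl3KO libraries. That is a weak check, since a value per gene cannot show the deleted exons. The study itself reports removal of the targeted exons in its RNA-seq data, strongly reduced Mettl3 mRNA and protein, and less m6A in Mettl3KO maDC. Sex-linked transcripts separated the libraries of pair 1 as well, with values given beside Tlr7, so for every sensor in pair 1 sex and genotype cannot be told apart, and pair 2 does not settle this.

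Most sensors were slightly higher in Mettl3KO than in Mettl3WT maDC, by differences that did not pass the test. Of the 9 sensors tested, Ddx58, Ifih1, Dhx58, Zbp1, Eif2ak2, Tlr7 and Mb21d1 were higher in Mettl3KO in both pairs. That was 7 of 9 or 77.8%, beside 19.1% of the 11757 genes tested. Within pair 1 alone 7 of 9 were higher, beside 46.7% of all genes, and within pair 2 alone 8 of 9, beside 41.7%. Mavs was lower in both pairs, as were 30.8% of all genes, and Tmem173 went in opposite directions. The median log2 change of the sensors was 0.32, against -0.053 over all genes tested, and their pair medians were 0.24 and 0.24 against -0.017 and -0.077. These log2 values are differences on the log2(RPKM + 1) scale, which understates the change of low genes. The sum over the 9 sensors was 262 RPKM (Mettl3WT) and 334 RPKM (Mettl3KO) for pair 1, compared with 114 and 141 RPKM for pair 2.

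In limma with the pair as a block and Benjamini-Hochberg adjustment, 0 of 9 sensors passed at an adjusted p of 0.05, where 0.0425% of all genes did (0.017% higher and 0.0255% lower), and 0 had an unadjusted p under 0.05, which 5.56% of all genes had. Their adjusted p ranged from 0.906 to 0.996 and their unadjusted p from 0.0594 upward. Ratios of (RPKM + 1) that reached 1.5 in both pairs were found in 0 sensors, in 0.731% of all genes upward and in 0.476% downward. With 2 pairs each standard error was 0.21 to 0.22 on the log2 scale and rested mostly on the spread of the other genes, so that a 95% interval reached about 0.5 to either side. A missed threshold does not show that a level was unchanged. Without Mettl3KO replicate 1 or without Mettl3WT replicate 2, in fits that then compare libraries across pairs, the log2 changes of Ddx58, Ifih1, Dhx58, Zbp1, Eif2ak2 and Mb21d1 turned negative, with lowest values from -0.29 for Mb21d1 to -0.79 for Ifih1, and that of Tmem173 reached -0.027 without Mettl3WT replicate 2.

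**Figure D1:**
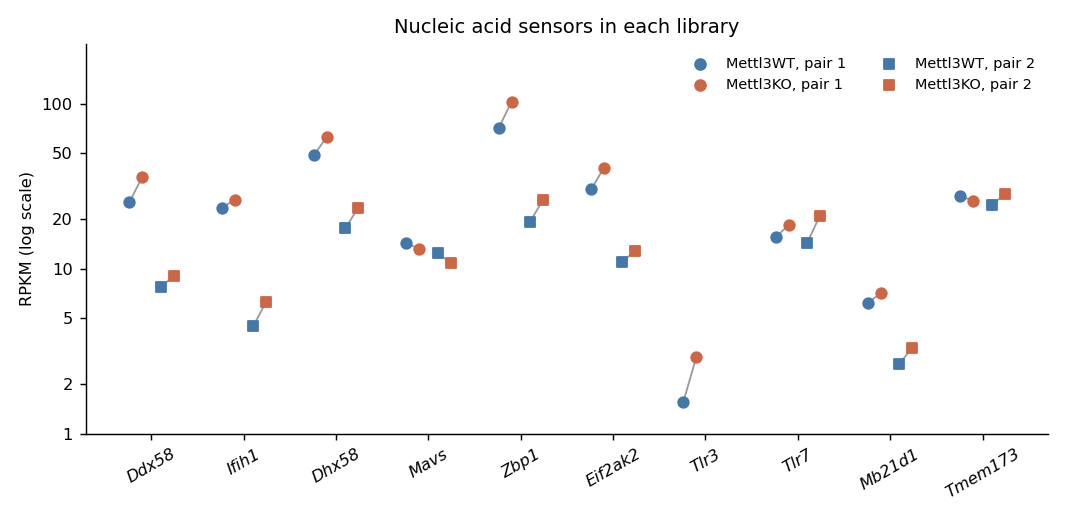
RPKM of each sensor on a log axis in the 4 libraries, with a line joining the Mettl3WT and Mettl3KO library of each pair. Zbp1 at 71.1 and 103 RPKM tops pair 1, Tlr3 is present only in pair 1, and in Ddx58, Ifih1, Dhx58, Zbp1, Eif2ak2 and Mb21d1 both circles of pair 1 lie above both squares of pair 2.

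**Figure D2:**
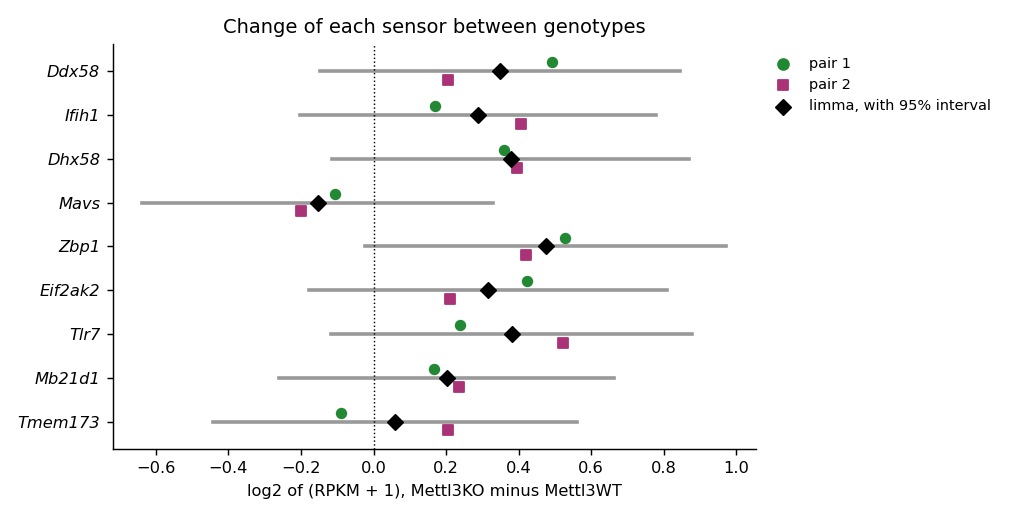
Difference in log2(RPKM + 1) between Mettl3KO and Mettl3WT for the 9 tested sensors, with a circle for pair 1, a square for pair 2 and a diamond for the limma estimate with its 95% interval. Every interval includes 0, and the estimates run from -0.15 for Mavs to 0.47 for Zbp1.

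The order of the levels differed between the pairs. In pair 1 Zbp1 was highest, followed by Dhx58 and Eif2ak2, in both genotypes, with Mb21d1 and then Tlr3 last. In pair 2 Tmem173 was highest, followed by Zbp1, Dhx58 and Tlr7, again in both genotypes, and Ifih1 and Mb21d1 were lowest of those listed. The descending order Zbp1, Dhx58, Eif2ak2, Ddx58, Ifih1 and Mb21d1 held in all 4 libraries, as did the order Tmem173, Tlr7 and Mavs. It was the place of the latter set among the former that changed between the pairs. With 4 libraries the differences between neighbours were not tested.

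Among the RIG-I-like receptors, Ddx58 (chromosome 4, 40203777 to 40239825, minus strand) was measured at 25.2 RPKM in the Mettl3WT library of pair 1, 35.9 RPKM in its Mettl3KO partner, and 7.72 and 9.05 RPKM in those of pair 2. The Mettl3KO library was higher within each pair, but both libraries of pair 1 exceeded both of pair 2, so the genotypes overlapped. Mettl3KO over Mettl3WT gave a ratio of 1.42 for pair 1, with a 95% counting interval of 1.36 to 1.49, and of 1.17 for pair 2, with an interval of 1.07 to 1.28. Such intervals hold counting error alone. The limma log2 change was 0.35 (SE 0.22, 95% interval -0.15 to 0.84, adjusted p = 0.994).

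Ifih1 (chromosome 2, 62595793 to 62646255, minus strand) was at 23.3 RPKM (Mettl3WT) and 26.3 RPKM (Mettl3KO) for pair 1 but at only 4.48 and 6.26 RPKM for pair 2. Its RPKM ratio between the pairs was the largest of the sensors in each genotype, though on the (RPKM + 1) scale Zbp1 exceeded it in Mettl3KO (3.83 against 3.76), and its genotypes overlapped. The ratio for pair 1 was 1.13 (counting interval 1.08 to 1.18) and that for pair 2 was 1.40 (1.28 to 1.53), thus smaller in the pair where Ddx58 had the larger ratio. The limma log2 change was 0.29 (SE 0.22, 95% interval -0.20 to 0.78, adjusted p = 0.994).

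Dhx58 (chromosome 11, 100694884 to 100704271, minus strand) reached 48.9 RPKM (Mettl3WT) and 63.0 RPKM (Mettl3KO) for pair 1, compared with 17.6 and 23.4 RPKM for pair 2. It was the highest of the RIG-I-like receptors in every library, with Mettl3KO above Mettl3WT in each pair and overlap between the genotypes. Its ratios were nearly equal in the pairs, 1.29 (counting interval 1.24 to 1.34) and 1.33 (1.24 to 1.43), and the limma log2 change was 0.38 (SE 0.22, 95% interval -0.12 to 0.87, adjusted p = 0.994).

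On the RPKM scale, which is per length, Dhx58 exceeded Ifih1 by 2.10 and 2.40 times in Mettl3WT and Mettl3KO of pair 1 and by 3.93 and 3.75 times in pair 2. For Ddx58 over Ifih1 the ratios were 1.09 and 1.37 in pair 1 and 1.73 and 1.45 in pair 2. Dhx58 over Ifih1 thus differed more between the pairs than between the genotypes, and Ddx58 over Ifih1 was higher in Mettl3KO in pair 1 and lower in pair 2.

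A lncRNA model on the other strand, Gm39839, lies within Ifih1, and Gm38483 overlaps Dhx58 by 2646 bases. Gm39839 was listed for pair 1 at 2.33 and 2.10 RPKM, and Gm38483 was at 9.08 and 11 RPKM for pair 1 and at 3.35 and 2.64 RPKM for pair 2. Strandedness is not given in the sources used here, so reads from these genes and from their antisense partners cannot be told apart.

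Mavs (chromosome 2, 131234063 to 131248025, plus strand), the adaptor of RIG-I and MDA5, was at 14.3 RPKM (Mettl3WT) and 13.2 RPKM (Mettl3KO) for pair 1, compared with 12.5 and 10.8 RPKM for pair 2. It was lower in Mettl3KO within each pair, and the genotypes overlapped because Mettl3KO of pair 1 exceeded Mettl3WT of pair 2. Mettl3KO was at 92.3% of Mettl3WT in pair 1 and at 86.0% in pair 2, with counting intervals of 0.859 to 0.993 and 0.792 to 0.934 for the ratios. The limma log2 change was -0.15 (SE 0.22, 95% interval -0.64 to 0.33, adjusted p = 0.994).

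The level of Ddx58 and that of Ifih1 over that of Mavs were higher in Mettl3KO than in Mettl3WT in both pairs. That follows from the directions above, as Mavs was lower and both receptors were higher in Mettl3KO in each pair. Ddx58 stood at 1.77 times Mavs in Mettl3WT and 2.72 times in Mettl3KO in pair 1, and at 0.616 and 0.839 times in pair 2. Ifih1 stood at 1.63 and 1.99 times Mavs in pair 1 and at 0.357 and 0.581 times in pair 2. These ratios of RPKM values were not tested.

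Zbp1 (chromosome 2, 173206612 to 173218922, minus strand) reached 71.1 RPKM (Mettl3WT) and 103 RPKM (Mettl3KO) for pair 1 but 19.3 and 26.1 RPKM for pair 2. Mettl3KO was higher in each pair, with overlap between the genotypes. Its ratios were 1.45 (counting interval 1.40 to 1.5) and 1.36 (1.26 to 1.46), and its limma log2 change of 0.47 was the largest of the 9 sensors (SE 0.22, 95% interval -0.023 to 0.97, adjusted p = 0.906).

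Eif2ak2 (chromosome 17, 78852550 to 78882572, minus strand) was at 30.2 RPKM (Mettl3WT) and 40.8 RPKM (Mettl3KO) for pair 1 but at 11 and 12.9 RPKM for pair 2. Mettl3KO was again higher within each pair while the genotypes overlapped. Its ratios were 1.35 (counting interval 1.30 to 1.40) and 1.17 (1.09 to 1.25), and the limma log2 change was 0.32 (SE 0.22, 95% interval -0.18 to 0.81, adjusted p = 0.994).

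The value of Eif2ak2 is uncertain, since a neighbouring model could share its reads. A transcribed pseudogene model, Gm6548 (chromosome 17, 78850504 to 78852544, minus strand), starts 5 bases beyond the end of Eif2ak2 in the annotation of the first table, whereas in RefSeq (GRCm38.p6) Eif2ak2 spans 78850504 to 78882572 and so covers it. Gm6548 was at 38.5 and 53.1 RPKM for pair 1 and at 16.7 and 16.3 RPKM for pair 2. It was higher than Eif2ak2 in every library. In pair 2 Gm6548 was slightly lower in Mettl3KO whereas Eif2ak2 was higher, so the direction of Eif2ak2 in that pair is uncertain too. Gm26637, on the plus strand, overlaps the other end of Eif2ak2 by 1574 bases and was listed for pair 1 at 1.23 and 1.79 RPKM.

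Of the endosomal receptors, Tlr7 (chromosome X, 167304926 to 167330574, minus strand), which reads single-stranded RNA, was at 15.5 RPKM (Mettl3WT) and 18.4 RPKM (Mettl3KO) for pair 1, compared with 14.3 and 21.0 RPKM for pair 2. Both Mettl3KO libraries exceeded both Mettl3WT libraries. Tlr7 was the only 1 of 9 sensors for which that held, and 4.7% of all genes tested were placed likewise. No sensor had both Mettl3KO libraries below both Mettl3WT libraries, as 10.2% of all genes did. The ratio of Tlr7 was thus 1.19 (counting interval 1.12 to 1.26) and then 1.47 (1.38 to 1.56). The limma log2 change was 0.38 (SE 0.22, 95% interval -0.12 to 0.88, adjusted p = 0.994).

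Tlr7 is X-linked, and the libraries of pair 1 differed in sex-linked transcripts. Xist, the RNA that coats the inactive X chromosome, was at 0.0502 RPKM in the Mettl3WT library and at 37.8 RPKM in the Mettl3KO library, and the Y-linked Ddx3y at 29.1 and 0.0243 RPKM. In pair 1, therefore, sex and genotype cannot be told apart. Over 329 X-linked genes tested, the median log2 ratio was -0.092 in pair 1 and 0.016 in pair 2, and 7.90% and 9.73% of them had a larger ratio than Tlr7. For pair 2 none of the 5 sex-linked transcripts examined is listed, in a table of genes above 1 RPKM in both libraries. A same-sex pair with the levels of pair 1 would exceed that bar in Xist or in Ddx3y, so in pair 2 as well a difference in sex cannot be told apart from genotype.

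Tlr3 (chromosome 8, 45395665 to 45411949, minus strand), which reads double-stranded RNA, was the lowest sensor of pair 1, with 1.56 RPKM in Mettl3WT and 2.91 RPKM in Mettl3KO. It was about 1.87 times higher in Mettl3KO, with a counting interval of 1.60 to 2.19 from about 244 and 435 reads. On the (RPKM + 1) scale the ratio was 1.53. Of the genes tested, all listed for both pairs, 2.57% were at least 1.5 times higher in pair 1 on that scale. Tlr3 is not among those genes, and no such share was computed for genes listed for pair 1 alone. Pair 2 gives no value for Tlr3, so this difference between a pair of libraries had no replicate and no test.

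In the DNA branch, Mb21d1 (chromosome 9, 78430518 to 78443525, minus strand) was at 6.23 RPKM (Mettl3WT) and 7.12 RPKM (Mettl3KO) for pair 1, compared with 2.66 and 3.32 RPKM for pair 2. Mettl3KO was higher in each pair, and the genotypes overlapped. Its ratios were 1.14 (counting interval 1.04 to 1.25) and 1.25 (1.08 to 1.43), and limma gave a log2 change of 0.20 (SE 0.21, 95% interval -0.26 to 0.66, adjusted p = 0.994).

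Tmem173 (chromosome 18, 35733678 to 35740554, minus strand) was at 27.5 RPKM (Mettl3WT) and 25.8 RPKM (Mettl3KO) for pair 1, compared with 24.3 and 28.2 RPKM for pair 2. It was lower in Mettl3KO of pair 1 and higher in Mettl3KO of pair 2, and all 4 values lay close together. The ratios were 0.938 (counting interval 0.883 to 0.996) and 1.16 (1.09 to 1.24), and the limma log2 change was 0.058 (SE 0.22, 95% interval -0.44 to 0.56, adjusted p = 0.996). The level of Mb21d1 over that of Tmem173 was 0.227 in Mettl3WT and 0.276 in Mettl3KO in pair 1, and 0.109 and 0.117 in pair 2.

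The sensors fell into 2 sets by their difference between the pairs, which exceeded that between the genotypes in the first set. Ddx58, Ifih1, Dhx58, Zbp1, Eif2ak2 and Mb21d1 were higher in pair 1 than in pair 2, whereas Mavs, Tlr7 and Tmem173 were at similar levels in both. Within Mettl3WT, Ifih1 was 5.20 times higher in pair 1, Zbp1 3.69 times, Ddx58 3.27 times, Dhx58 2.78 times, Eif2ak2 2.74 times and Mb21d1 2.34 times. Within Mettl3KO the same genes were 4.20, 3.94, 3.97, 2.69, 3.17 and 2.15 times higher. For Mavs, Tlr7 and Tmem173 the ratios were 1.14, 1.08 and 1.13 in Mettl3WT and 1.23, 0.877 and 0.915 in Mettl3KO.

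Taking (RPKM + 1), 6 of 9 sensors were 1.5 times or more higher in pair 1 in both genotypes, beside 11.2% of all genes tested. At a ratio of 2 or more it was 5 of 9, beside 3.35%. These ratios were not tested, as the pairs carry a single library per genotype. The median log2 ratio of pair 1 over pair 2 was 1.38 in Mettl3WT and 1.39 in Mettl3KO for the sensors, against 0.023 and 0.12 over all genes.

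**Figure D3:**
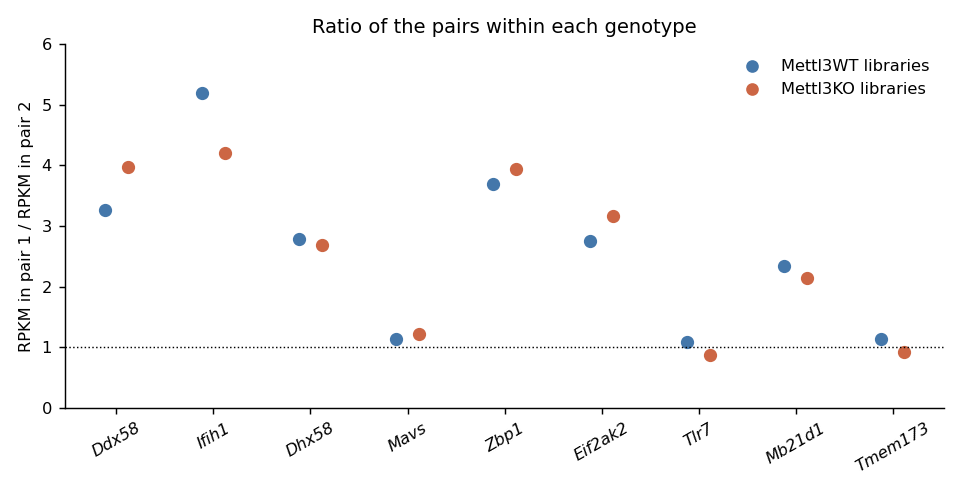
Ratio of the RPKM in pair 1 to that in pair 2 for the 9 sensors listed in both tables, within Mettl3WT and within Mettl3KO. Mavs, Tlr7 and Tmem173 lie near the dotted line at 1, and the other 6 lie between 2.15 and 5.20.

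The interferon-stimulated response element (ISRE) is the sequence bound by the factors that interferon activates. It was searched as GAAANNGAAA, on both strands, in RefSeq promoters of 300 bases (250 bases before to 50 after the start of the gene, GRCm38.p6). All 10 sensors matched a RefSeq gene, and 6 of 10 had an entry in the promoter table. The motif was found in 3 of these 6, Ddx58, Ifih1 and Eif2ak2, and in 3.44% of all 32851 promoters. Of 16 interferon-stimulated effectors with an entry, 8 had it. The windows that hold it are printed 5′ to 3′ on the strand of the gene, with the motif in capitals.
Ddx58: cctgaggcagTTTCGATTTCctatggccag
Ifih1: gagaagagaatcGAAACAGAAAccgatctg
Eif2ak2: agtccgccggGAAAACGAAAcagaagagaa
The windows lie at chr4:40239804-40239833, chr2:62646206-62646235 and chr17:78882535-78882564, all on the minus strand, and in Ddx58 the motif reads on the opposite strand. The motif starts at base 3, 33 and 19, in that order, with the first base of the gene as base 1. Mavs, Tlr3 and Mb21d1 had an entry without these letters in the window. A match is a description of the sequence and was not tested for function.

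Genes that act around the sensors were examined in 7 lists with 102 genes, of which 89 were tested and 0 passed limma at an adjusted p of 0.05. In 6 of the lists the median log2 change was between -0.12 and 0.045, close to that of all genes. The exception was the list of interferon-stimulated effectors, with a median of 0.35, of whose 21 tested members 13 were higher in Mettl3KO in both pairs, beside 19.1% of all genes, and 0 were lower in both, beside 30.8%.

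Among 15 tested regulators of RIG-I-like receptors, 3 were higher in both pairs (Ddx60, Nlrx1 and Tomm70a) and 4 were lower (Riok3, Itch, Cyld and Dhx9). The shares over all genes, 19.1% higher and 30.8% lower in both pairs, hold for this and the next lists, and with counts this small nothing is read from the directions. These genes, and all others of the lists except Ifit1, Ifit2, Ifit3 and Isg15, were named after their values were seen. Trim25, the ubiquitin ligase that acts on RIG-I, was at 66.2 and 95.8 RPKM for pair 1 and at 59.8 and 46.2 RPKM for pair 2. It thus went in opposite directions in the pairs.

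Among 13 genes of the TBK1 and IRF3 branch, which carries the signal from Mavs and Tmem173 to the interferon genes, 5 were higher in both pairs (Tbk1, Ikbke, Tank, Azi2 and Irf7) and 3 were lower (Traf3, Sike1 and Traf2). The kinase gene Tbk1 was nearly equal in the genotypes, at 23.9 and 24.1 RPKM for pair 1 and at 18.6 and 18.7 RPKM for pair 2. Irf7, the interferon-induced member of the family, was at 315 and 510.0 RPKM for pair 1 and at 299.8 and 396 RPKM for pair 2, with a limma adjusted p of 0.889.

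Among 11 genes of endosomal TLR transport and signalling, 3 were higher in both pairs (Myd88, Ctss and Ctsb) and 3 were lower (Slc15a4, Ticam1 and Irak1). Ticam1, the adaptor of Tlr3, was at 15.2 and 14.1 RPKM for pair 1 and at 21.7 and 15.6 RPKM for pair 2. Unc93b1, which carries these receptors to endosomes, was at 144 and 177 RPKM for pair 1 and at 241 and 220.0 RPKM for pair 2. The chaperone followed the direction of Tlr7 in pair 1 only.

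Among 11 tested genes that limit or transmit signals of double-stranded RNA and Z-form nucleic acids, 1 was higher in both pairs (Mlkl) and 4 were lower (Stau1, Ripk1, Ripk3 and Eif2s1). Adar, the editing enzyme that restrains MDA5, PKR and Zbp1, was at 41.1 and 48.5 RPKM for pair 1 and at 17.8 and 15.2 RPKM for pair 2. Ripk3, the kinase downstream of Zbp1, was at 9.71 and 8.49 RPKM for pair 1 and at 11.9 and 11.4 RPKM for pair 2. Zbp1 was higher in Mettl3KO in both pairs, and Ripk3 was lower in both.

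Among 15 tested nucleases and regulators of the DNA branch, 5 were higher in both pairs (Trex1, Rnaseh2c, Rnaset2a, Dnase2a and Banf1) and 3 were lower (Rnaseh2a, Rnf5 and Ddx41). Trex1, the exonuclease that removes cytosolic DNA, was at 179 and 280.0 RPKM for pair 1 and at 124 and 186 RPKM for pair 2, with a limma adjusted p of 0.763. Rnaset2a and Rnaset2b are near-identical copies between which reads could be split, so the value of each is uncertain. Of 3 tested interferon receptor genes, Ifnar2 was higher in both pairs and 0 were lower in both.

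Among the interferon-stimulated effectors 5 of 21 reached an upward ratio of 1.5 in both pairs, on the (RPKM + 1) scale, beside 0.731% of all genes, and 9 had an unadjusted p under 0.05, beside 5.56%. Ifit3, an inhibitor of viral RNA translation with its relatives, was at 72.9 and 173 RPKM for pair 1 and at 8.61 and 18.2 RPKM for pair 2 (limma log2 change 1.12, SE 0.22, adjusted p = 0.184). Ifit1, an RNA-binding relative, was at 100.9 and 176 RPKM and at 11.5 and 32.1 RPKM. The log2 change of Ifit1 in limma was 1.10 (SE 0.24, adjusted p = 0.223). Ifit2 and the ubiquitin-like Isg15 had log2 changes of 1.09 and 1.01 (limma adjusted p = 0.239 for both), and Cmpk2 was the fifth gene. All 5 were higher in Mettl3KO in each pair, by more than any sensor tested in both.

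The same effectors also differed between the pairs, with a median log2 ratio of pair 1 over pair 2 of 1.78 in Mettl3WT and 2.10 in Mettl3KO. Not all went the same way between genotypes: Mx1 was at 333 and 395 RPKM for pair 1 but at 138 and 117 RPKM for pair 2.

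**Figure D4:**
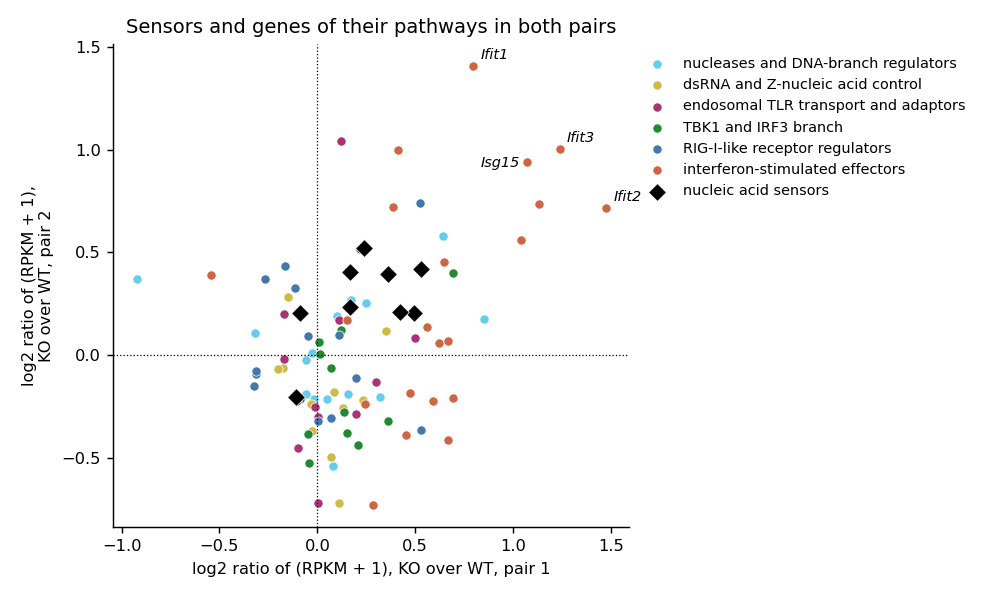
Log2 ratio of (RPKM + 1) in Mettl3KO over Mettl3WT in pair 1 (horizontal) and pair 2 (vertical) for the 9 sensors, drawn as diamonds, and the tested genes of 6 pathway lists, drawn as circles. Of the 9 diamonds 7 lie to the upper right of both dotted lines, nearer to the origin than Ifit1, Ifit2, Ifit3 and Isg15.

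The genes whose levels followed the mean sensor pattern most closely were found by the Euclidean distance between profiles of log2(RPKM + 1), each centred on its mean, over 4 libraries. They were Gm12735 at 0.0554, Fam89a at 0.0862, Morc3 at 0.0863, Gm48505 at 0.0920 and Uvrag at 0.106. In pair 2 Gm12735 was at only 1.04 and 1.57 RPKM and Gm48505 at 1.09 and 1.40 RPKM, close to the lowest values listed there. The mean centred sensor profile was 0.42 in Mettl3WT and 0.66 in Mettl3KO of pair 1, and -0.67 and -0.41 in pair 2. Mavs, Tlr7 and Tmem173, at similar levels in both pairs, did not follow that mean. Morc3, a nuclear ATPase, was at 25.1 and 28.6 RPKM for pair 1 and at 10.3 and 12.9 RPKM for pair 2.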

How the data were processed

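Reads from polyadenylated RNA were processed by the authors with bcl2fastq, TopHat2 2.0.14 (genome mm10) and Cuffnorm, as the submitters' notes list them, and RPKM values per gene were deposited as a table per pair. Annotation, strandedness and handling of multiply mapped reads are not stated in these sources. Both tables also hold the authors' log2 fold changes, p-values and q-values, which were not used. Symbols had been turned into dates for 22 genes of pair 1 and 16 of pair 2. These were not restored, and repeated ones were kept apart by their position.

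The 11822 genes listed in both tables were analysed as log2(RPKM + 1), and the 11757 with a mean of at least 1 RPKM were tested with limma 3.58.1 (R 4.3.3), intensity trend, pair as a block and Benjamini-Hochberg adjustment at 0.05. With 1 residual degree of freedom limma added 8.68 from the other genes. An exact permutation test over 2 pairs cannot reach p = 0.05. The study's methods describe littermate pairs and each table holds 1 pair. Same-numbered libraries deviated together from the means of their groups (r = 0.697 across genes). By this value, littermates and a batch shared by libraries of the same number cannot be told apart. Depth was recovered from low genes, of which 97.7% to 100% lay within 0.1 of a whole read. Coordinates are in mm10. Gene spans are those deposited with the RPKM values, GGACT sites use GENCODE vM21, and promoters are from RefSeq. Read numbers and counting intervals used the longest coding transcript.

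The rule for named pathway genes took those past the test or the rule of 1.5 in both pairs, up to 4 a list, which gave 4 genes. Other pathway genes in the text were named after their values were seen. The sensors, lists and rules were chosen with earlier results of these data known. Alternatives were another pseudocount, no filter, centring, no block, no trend, protein-coding genes only, and leaving out each library.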

Additional observations from a re-analysis of the deposited data

Results flagged for a closer look

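Genes listed for pair 1 alone took no part in the comparisons. Of those on the sensor and pathway lists, 3 were 1.5 times or more higher in Mettl3KO than in Mettl3WT on the (RPKM + 1) scale. The others on those lists, Rnf125, Adarb1, Enpp1, Trim56 and Nlrc3, did not reach that ratio. Only upward ratios were searched. The share among all 11868 genes listed for pair 1 alone was not computed, so nothing is read from the count. Tlr3 had a ratio of 1.53, from 1.56 to 2.91 RPKM. Ifnb1, the gene of interferon-beta, had a ratio of 2.34, from 0.146 to 1.69 RPKM. Ifi44, an interferon-stimulated gene, had a ratio of 1.61, from 14.3 to 23.7 RPKM. All 3 were higher in Mettl3KO in 1 of 1 pairs, with no replicate and no test. On the marker lists the granulocyte genes Ltf, Ngp, Ly6g and Retnlg and the sex-linked Xist also passed that bar, with ratios of 4.22, 3.53, 3.33, 2.47 and 36.9.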

How the results depend on the processing

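The number of genes past the limma test was 5 of 11757. It was 1 with a pseudocount of 0.1, 1 with each pair centred on its median, 42 of 10027 with protein-coding genes only, and 1 to 118 when a library was left out. In a limma fit with no block for the pair, 0 genes passed and 78 had an unadjusted p below 0.05. The cause of these shifts was not tested. No sensor was called in any of these fits. Apart from leaving out libraries, the sensors' log2 changes kept their sign in all 54 values from the alternatives, with a lowest adjusted p of 0.884. With pair 1 alone 7 of 9 sensors were higher in Mettl3KO, and with pair 2 alone 8 of 9, a count chosen after seeing the data. Leaving out a library sets libraries of different pairs against each other without the block, and 14 of 36 such values reversed, without Mettl3KO replicate 1, Mettl3WT replicate 2 or, for Tmem173, Mettl3KO replicate 2. The log2 changes then ranged from -0.59 to 1.29 for Ddx58, -0.79 to 1.36 for Ifih1, -0.33 to 1.09 for Dhx58, -0.49 to 1.44 for Zbp1, -0.48 to 1.11 for Eif2ak2, -0.29 to 0.69 for Mb21d1 and -0.027 to 0.14 for Tmem173. The sign of Mavs, at -0.29 to -0.019, and of Tlr7, at 0.29 to 0.47, held. Genes not listed for pair 2, Tlr3 among them, could not be compared.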
